A study of Mus musculus with 35 samples.

Results

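The 8 genes Tcrg-C4, Cd163l1, 5830411N06Rik, Sox13, Blk, Maf, Zbtb16 and Ccr6, which mark gamma delta T cells in the mouse, were followed through sorted thymocytes. They were picked by name, and each name had 1 row among the 41096 genes of the deposited count table. RNA sequencing covered 35 libraries in 7 groups of 5. The sorted cells were CD4+CD8+ double positive (DP) or CD4-CD8- double negative (DN) thymocytes. KO DP came from Mettl3flox/flox; Cd4Cre mice and WT DP and WT DN from Mettl3flox/wt; Cd4Cre mice, all 10 weeks old, so the mice labelled WT also carried Cre and 1 floxed allele. The donors of aged DP and aged DN were 60 weeks old and those of young DP and young DN 10 weeks old, all of them wild type. Mettl3 encodes the catalytic subunit of the m6A RNA methyltransferase, and Cd4Cre is driven by Cd4 regulatory sequences that become active around the DP stage. No KO DN library was analysed here. The labels number the libraries 1 to 5 in each group without saying that each is a separate animal, so every p-value reflects only how these samples spread, which may be technical.

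Gamma delta T cells carry a receptor made of a gamma and a delta chain and branch off in the thymus at the DN stage, before the DP stage of alpha beta T cells. Some of them are programmed in the thymus to make interleukin-17, a state that depends on the transcription factors Sox13 and Maf. Such cells carry the chemokine receptor Ccr6, the kinase Blk and the scavenger receptors encoded by Cd163l1 and 5830411N06Rik. Several of these genes are not unique to them: Blk and Ccr6 are also B cell genes, and Zbtb16 is a hallmark of innate-like alpha beta T cells such as NKT cells.

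Promoter sequence from RefSeq (GRCm38.p6, 250 bases before to 50 bases after the gene's start) was at hand for 4 of the 8 genes. The 3 that held a match to at least 1 of the motifs searched are shown, among them the neighbours Cd163l1 and 5830411N06Rik on chromosome 7. The coordinates are chr7:140218017-140218316 (plus strand) for Cd163l1, chr7:140247051-140247350 (plus strand) for 5830411N06Rik and chr17:8235793-8236092 (plus strand) for Ccr6. Capitals mark matches on either strand to CANNTG (E-box), ACAAAG (SOX core), TGCTGA (MAF half-site) and TGTGGT (RUNX core).
Cd163l1: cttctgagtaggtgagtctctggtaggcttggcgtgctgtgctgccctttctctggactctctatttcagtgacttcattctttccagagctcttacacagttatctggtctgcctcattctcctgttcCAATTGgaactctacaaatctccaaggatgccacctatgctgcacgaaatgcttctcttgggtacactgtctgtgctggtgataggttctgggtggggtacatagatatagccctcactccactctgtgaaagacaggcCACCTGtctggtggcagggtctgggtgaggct
5830411N06Rik: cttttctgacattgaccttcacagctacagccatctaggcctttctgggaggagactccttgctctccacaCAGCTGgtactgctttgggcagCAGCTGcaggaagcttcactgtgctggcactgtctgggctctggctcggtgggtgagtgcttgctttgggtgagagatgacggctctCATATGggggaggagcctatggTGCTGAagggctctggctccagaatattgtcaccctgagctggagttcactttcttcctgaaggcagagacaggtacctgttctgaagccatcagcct
Ccr6: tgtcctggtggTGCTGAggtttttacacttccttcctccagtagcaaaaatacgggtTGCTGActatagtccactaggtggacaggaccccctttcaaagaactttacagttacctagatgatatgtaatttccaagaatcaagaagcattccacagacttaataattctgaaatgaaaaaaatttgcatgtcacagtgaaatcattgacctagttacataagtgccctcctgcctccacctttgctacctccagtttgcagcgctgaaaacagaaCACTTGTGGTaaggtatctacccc
The Cd163l1 window held 2 E-boxes and none of the other 3 motifs. The 5830411N06Rik window held 3 E-boxes and 1 MAF half-site. The Ccr6 window held 2 MAF half-sites and 1 E-box that overlaps 1 RUNX core by 2 bases. The fourth window, at chr1:133424163-133424462 (minus strand) for Sox13, held none of the 4. Of 32851 RefSeq mouse promoters of the same length, 72.3% held an E-box, 18.7% a SOX core, 19.5% a MAF half-site and 16.8% a RUNX core, so each of these matches is common, and a match is a description of letters, not of binding.

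In the positions of the deposited table, whose gene identifiers carry the prefix of the C57BL/6NJ strain annotation, Cd163l1 spans 150649272 to 150661938 on chromosome 7 and 5830411N06Rik spans 150674651 to 150740641 on the same strand. The other genes lie on chromosomes 13 (Tcrg-C4), 1 (Sox13), 14 (Blk), 8 (Maf), 9 (Zbtb16) and 17 (Ccr6). The transcripts of Cd163l1 and 5830411N06Rik were 73.9% identical over 2351 aligned coding bases, and 0 of 3405 windows of 50 bases were shared between them. Tcrg-C4 was 79.9%, 80.9% and 82.2% identical to Tcrg-C1, Tcrg-C2 and Tcrg-C3 over the aligned coding bases, again with 0 of 936 windows shared. How the counting treated strand was not given in the sources used here, so reads from overlapping antisense transcripts cannot be told apart from those of the genes.

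Libraries held 12391908 to 18820157 counts, and levels are given in CPM, counts scaled to library size after TMM over all 35 libraries. The sort was checked on marker genes. Over 10 DN-stage genes the summed level was 422 to 571 CPM in young DP and 2784 to 3151 CPM in young DN, and over the 9 DP-stage genes in the table it was 17554 to 20461 CPM in young DP and 1753 to 3026 CPM in young DN. The DN-stage sum was lower than in young DN in WT DN (1244 to 2262 CPM) and aged DN (1332.5 to 2562.5 CPM). The DP-stage sum was lower than in young DP in KO DP (10029 to 14318 CPM), WT DP (14822 to 17069 CPM) and aged DP (15130 to 17510 CPM). The part of stage composition in the comparisons below was not tested. Mettl3 had a mean CPM of 52.1 ± 5.43 in KO DP, against 50.6 ± 4.05 in WT DP (SD, n = 5 each); a count over the whole gene does not test the deletion of floxed exons. Some libraries stood apart. In aged DN 5, WT DN 2 and aged DP 5, the summed level of 15 B cell genes (16950, 6730 and 2476 CPM) exceeded the next highest library of each group (1603, 1167 and 1063 CPM). In aged DN 1, the summed level of 21 genes of the interleukin-17 programme was 9642 CPM against 1307 CPM in the next highest aged DN library, and KO DP 2 had counts for 12306 genes, the fewest of all libraries. Aged DP 1 was also left out in some fits. Its summed level of the interleukin-17 genes was 1414.2 CPM, against 1414.3 CPM in aged DP 2. It stood out instead by its values for several of the genes followed here, so results without it depend on the values tested. Where leaving out any of these libraries moved a result, the value without them is given beside it.

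The 8 genes were detected mainly in DN thymocytes. In young mice Tcrg-C4, the constant region of a T cell receptor gamma chain, was the most abundant per length, at 165 ± 17.4 CPM per kilobase in young DN (SD, n = 5). 5830411N06Rik followed at 55.0 ± 5.97, then Cd163l1 at 28.7 ± 3.41, Sox13 at 27.1 ± 3.22 and Blk at 20.2 ± 1.30 CPM per kilobase. Ccr6 (4.76 ± 1.97), Maf (4.0 ± 0.622) and Zbtb16 (2.81 ± 0.676 CPM per kilobase) were lowest. In this order, Cd163l1 and Sox13, Ccr6 and Maf, and Maf and Zbtb16 did not lie further apart than the sum of their SDs, and the other neighbours did.

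**Figure D1:**
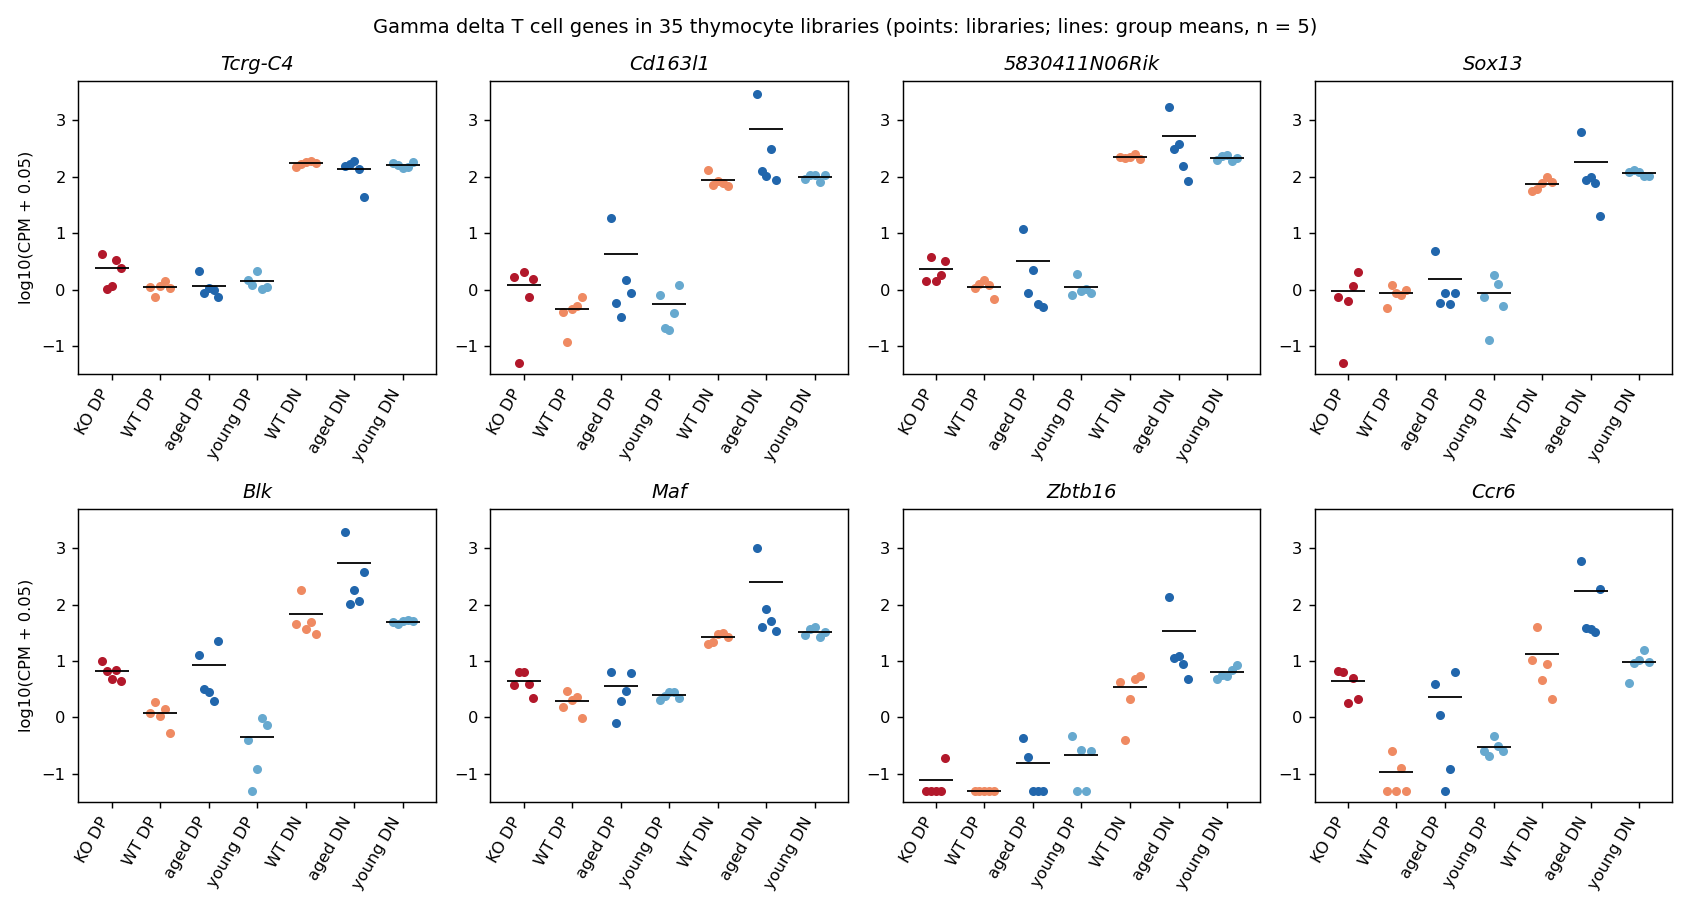
Level of each of the 8 genes as log10(CPM + 0.05) in the 7 groups; points are libraries and lines are means of 5 libraries. The DN group means lie above the DP group means for every gene, and a single aged DN library (aged DN 1) is the highest point in 7 of the 8 panels.

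All 8 genes were lower in young DP than in young DN in edgeR's quasi-likelihood test (adjusted p from 1.17e-13 to 1.5e-07), in a comparison where 36.5% of all 13772 tested genes were called lower. 5830411N06Rik, which encodes a scavenger receptor, had 0.748 to 1.87 CPM in young DP and 190 to 248 CPM in young DN, which made it 205-fold lower (log2 fold change -7.67, SE 0.16). Cd163l1, its neighbour and relative, was 197-fold lower (0.140 to 1.14 CPM in young DP, 82.4 to 108 CPM in young DN). These 2 groups did not overlap for any of the 8 genes. The share of all genes whose groups do not overlap was not counted, here or in the comparisons below. Sox13, an HMG-box transcription factor of the gamma delta lineage, was 140-fold lower, Blk 124-fold, Tcrg-C4 120-fold, Ccr6 38.7-fold and Zbtb16 37.8-fold lower in young DP. In bulk RNA, fewer cells of a type and less RNA per cell cannot be told apart.

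Maf, a bZIP transcription factor used by several effector T cell types, was the gene with the smallest difference. It had 1.97, 2.33, 2.81, 2.72 and 2.15 CPM in young DP 1 to 5, against 29.3, 36.7, 39.4, 27.0 and 32.4 CPM in young DN 1 to 5. That is 13.8-fold lower in young DP (log2 fold change -3.76, SE 0.15, adjusted p = 1.74e-11). The group mean of Maf in DP was 7.32% of that in DN in WT mice and 7.27% in young mice, whereas the other 7 genes stood at 0.489% to 2.65% in young mice. Single pairs of same-numbered young libraries spread more widely, with Maf at 6.36% to 10.1%, Zbtb16 at 0% to 8.75% and Ccr6 at 1.69% to 5.02%. These ranges of Maf and Zbtb16 overlap.

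The genes tested were also lower in DP than in DN in WT and in aged mice. In WT mice 7 of the 7 genes tested were lower in DP than in DN (33.7% of all tested genes were called lower), with Maf again least, at 13.7-fold (log2 fold change -3.74, SE 0.26). Zbtb16, a zinc finger factor known as PLZF, did not pass the filter on low counts there: it had 0 counts in all 5 WT DP libraries and 3.35 ± 2.11 CPM in WT DN (SD, n = 5). Set against a floor of 3 counts over the WT DP group, it was at least 77.9-fold lower in WT DP. In aged mice 8 of 8 were lower in DP (24.6% of all tested genes were called lower), by 62.5-fold for Blk (log2 fold change -5.96) to 326-fold for Zbtb16 (-8.31). These sizes moved with single libraries, although all 8 genes passed without any 1 of them. Without aged DN 1 the log2 fold change was -4.50 for Blk, -6.41 for Zbtb16, -3.86 for Maf (against -6.11), -5.59 for Sox13 (against -6.98), -5.05 for Ccr6 (against -6.31), -5.23 for Cd163l1 (against -7.40) and -6.22 for 5830411N06Rik (against -7.42). Without aged DP 1 it was -9.86 for Cd163l1, -9.62 for Zbtb16, -9.08 for 5830411N06Rik and -8.08 for Sox13, and without aged DP 5 it was -6.73 for Blk and -7.20 for Ccr6. Without aged DN 1, aged DN 5, aged DP 1 and aged DP 5 together it ran from -4.97 for Maf to -7.93 for Cd163l1.

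**Figure D2:**
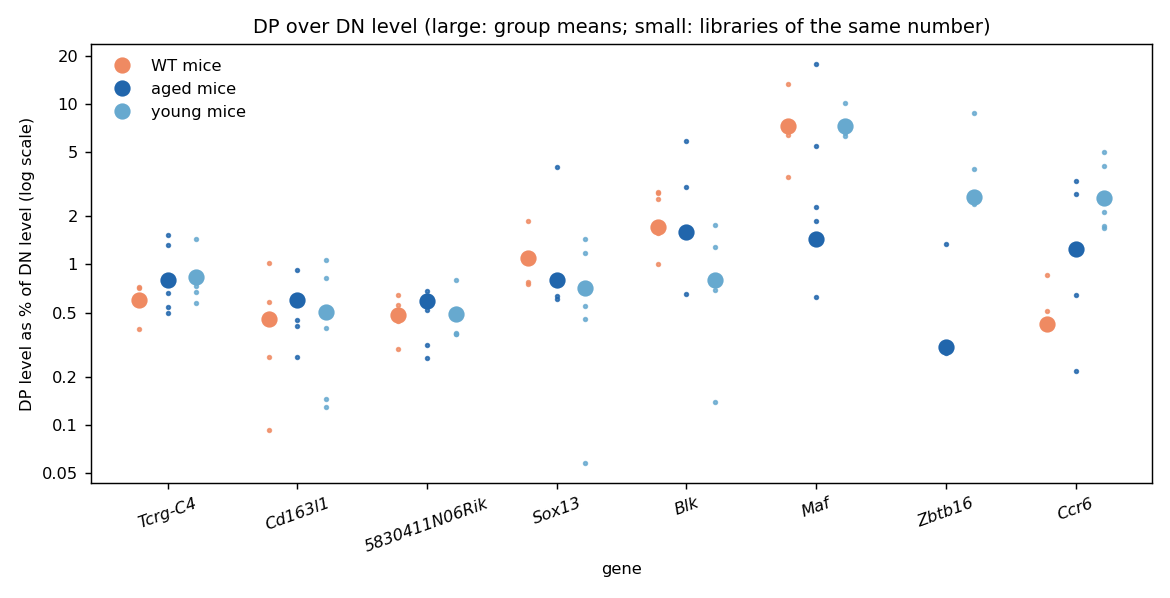
DP level as a percentage of the DN level, on a log scale, for WT, aged and young mice; large points are ratios of group means and small points are libraries of the same number, with ratios of 0 left out (all Zbtb16 ratios in WT mice). Maf is the highest gene in WT and young mice, at 7.32% and 7.27%, and is at 1.45% in aged mice.

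The age difference in the DP to DN ratio was tested as an interaction of age and stage, and 0 of 8 genes passed (edgeR, adjusted p from 0.335 to 0.971, none at an unadjusted p under 0.05). Only 0.00679% of all 14722 genes tested passed there. DESeq2, which called 0.515% of all genes, also called 0 of the 7 genes to which it gave an adjusted p. The aged ratio rests partly on aged DN 1. In aged mice Maf in DP was 1.45% of DN over the group means, but 0.625% for the libraries numbered 1 and 1.87%, 2.29%, 5.49% and 17.7% for those numbered 2 to 5.

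Among aged DN libraries, aged DN 1 stood far above the others for 7 of the 8 genes. Cd163l1 had 2919, 127, 103, 315 and 87.6 CPM in aged DN 1 to 5, against 90.5, 106, 108, 82.4 and 107 CPM in young DN 1 to 5. Aged DN 1 held 82.2% of the summed Cd163l1 level of its group and was 25.4 times the median of the other 4. Maf had 1026, 40.1, 83.4, 51.8 and 33.6 CPM in aged DN 1 to 5, against 29.3 to 39.4 CPM in young DN. All the aged DN libraries but aged DN 5 lay above the highest young DN library for Maf. In aged DN 1 the ratio to the median of the other 4 was 22.3 for Maf, 15.8 for Ccr6, 13.5 for Zbtb16, 12.9 for Blk, 7.69 for Sox13 and 7.35 for 5830411N06Rik.

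Tcrg-C4 did not share that rise. It had 157, 166, 188, 140 and 44.5 CPM in aged DN 1 to 5, against 174, 160, 146, 148 and 186 CPM in young DN 1 to 5, so aged DN 1 lay within the young range and aged DN 5 below it. Trdc, the constant region of the delta chain, was at 391 CPM in aged DN 1, against 61.4 to 210 CPM in aged DN 2 to 5 and 170 to 190 CPM in young DN. Tcrg-V4, a gamma chain variable gene, was at 171 CPM there, against 6.11 to 39.1 CPM in aged DN 2 to 5. The rest of the receptor list was not raised, on 17 counts or fewer in aged DN 1. Trdv4 (1.20 CPM) and Tcrg-V6 (0.423 CPM) were lower there than in any other aged DN library. Tcrg-V5, at 0.282 CPM, lay within the range of aged DN 2 to 5. Some other genes of the interleukin-17 programme were also high in aged DN 1. Il1r1, a subunit of the interleukin-1 receptor, was at 1586 CPM against 8.49 to 103 CPM in aged DN 2 to 5. Il23r, a subunit of the interleukin-23 receptor, was at 693 CPM against 3.14 to 38.7 CPM. Il17a, the cytokine itself, was at 1.06 CPM in aged DN 1. Not all of that list rose: Ccr2 was at 8.53 CPM in aged DN 1 and 35.7 CPM in aged DN 5, and Sox4 at 73.3 and 68.9 CPM. The genes named here were picked after their values were seen. Summed over the B cell markers Cd79a and Ms4a1, aged DN 1 had the lowest level of the aged DN group, with 100.4 CPM against 128 to 2381 CPM in aged DN 2 to 5.

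The DP library of the same number was the highest aged DP library for 6 of the 8 genes, and aged DP 5 was the highest for Blk and Ccr6. Cd163l1 had 18.3, 0.524, 0.273, 1.42 and 0.808 CPM in aged DP 1 to 5, against 0.748, 0.155, 0.140, 0.332 and 1.14 CPM in young DP 1 to 5. Aged DP 1 lay above both groups, and aged DP 2 to 5 overlapped young DP. In aged DP 1, the levels of Cd163l1, 5830411N06Rik, Sox13, Blk, Maf and Ccr6 were 0.628%, 0.684%, 0.743%, 0.659%, 0.625% and 0.644% of those in aged DN 1. These 6 genes were grouped after their values in this pair were seen, so the narrow range is a description. Tcrg-C4 at 1.33% and Zbtb16 at 0.279% lay outside it, and over all 8 genes the range was 0.279% to 1.33%.

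**Figure D3:**
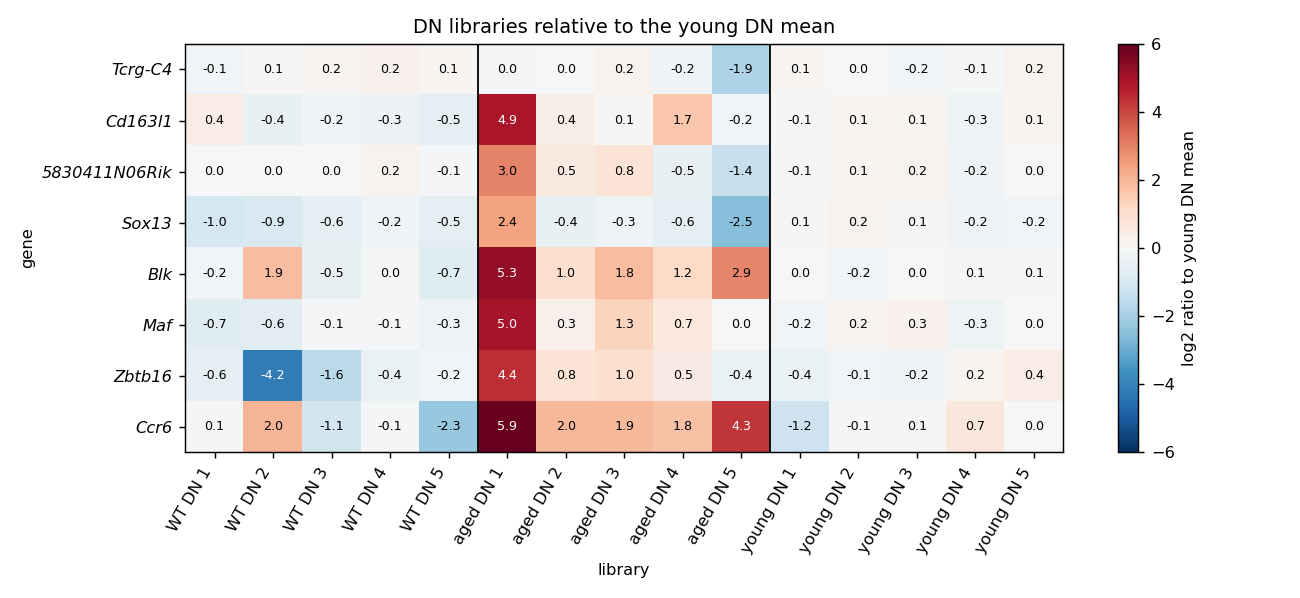
Log2 ratio of each DN library to the mean of the 5 young DN libraries, for the 8 genes (rows) and 15 DN libraries (columns, in the order WT, aged and young DN). Aged DN 1 is raised for 7 genes but not for Tcrg-C4, and aged DN 5 and WT DN 2 are raised for Blk and Ccr6.

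With all 5 aged DN libraries, none of the 8 genes passed the test of aged DN against young DN. edgeR called 0 of 8 (adjusted p from 0.0965 to 0.677, 5 of 8 at an unadjusted p under 0.05), in a comparison where 0.267% of all 13873 genes tested were called. DESeq2, which called 5.59% of all genes, called 2, Blk and Ccr6, of the 5 genes to which it gave an adjusted p. Ccr6 had 590, 38.2, 36.7, 32.9 and 189 CPM in aged DN 1 to 5, against 4.07, 9.19, 10.3, 15.3 and 9.47 CPM in young DN 1 to 5. Blk, a Src-family kinase, had 1901, 101, 179, 115 and 381 CPM in aged DN 1 to 5, against 49.3, 44.7, 50.7, 53.0 and 52.0 CPM in young DN 1 to 5. For these 2 genes every aged DN library lay above every young DN library, and for the other 6 the groups overlapped. How many of all genes had groups without overlap was not counted. Without aged DN 1 alone, Blk passed in edgeR (adjusted p = 0.0342) and the other 7 did not.

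Without aged DN 1 and aged DN 5, which left 3 aged and 5 young libraries, 5 of 8 genes passed in edgeR, where 5.14% of all 14345 genes tested were called. These libraries were left out for their values in these data, and aged DN 1 was far above its group for most of the 8 genes. Leaving it out narrows the spread of the values tested, so the calls below are descriptions. Ccr6 was higher in aged DN, at 35.9 ± 2.71 CPM (SD, n = 3) and 9.66 ± 3.99 CPM in young DN (SD, n = 5), with a log2 fold change of 1.91 (SE 0.27, adjusted p = 0.002). Blk was higher at 132 ± 41.4 CPM in aged DN and 49.9 ± 3.23 CPM in young DN, with a log2 fold change of 1.41 (SE 0.14, adjusted p = 0.000255). Maf (log2 fold change 0.83, SE 0.20, adjusted p = 0.0328) and Zbtb16 (0.79, SE 0.20, adjusted p = 0.0441) were also higher. Sox13 was lower in aged DN, at 87.5 ± 10.0 CPM and 117 ± 13.9 CPM in young DN, with a log2 fold change of -0.40 (SE 0.10, adjusted p = 0.0422). Cd163l1 (log2 fold change 0.89, SE 0.28, adjusted p = 0.106), 5830411N06Rik (0.40, SE 0.21, adjusted p = 0.338) and Tcrg-C4 (0.029, SE 0.10, adjusted p = 0.918) did not pass.

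**Figure D4:**
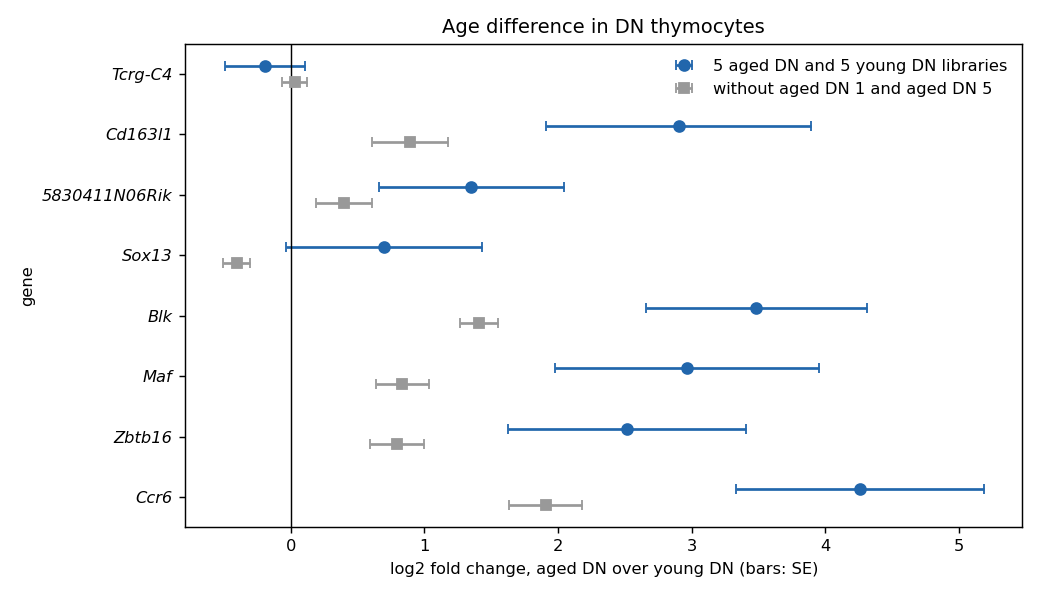
Log2 fold change of aged DN over young DN for each gene with its SE, from all 10 libraries (circles) and without aged DN 1 and aged DN 5 (squares). Sox13 is at 0.70 with all libraries and at -0.40 without those 2, and Blk and Ccr6 remain above 0 at 1.41 and 1.91.

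Blk and Ccr6 were set beside B cell genes in the aged and young DN libraries. Over Cd79a and Ms4a1, picked from the list of 15 after its values were seen, aged DN 2, 3 and 4 had 128, 144 and 141 CPM, against 20.5 to 96.3 CPM in young DN. Per CPM of those 2 genes, Blk stood at 0.788, 1.24 and 0.816 in aged DN 2, 3 and 4, against 0.526 to 2.41 in young DN, and Ccr6 at 0.298, 0.255 and 0.233, against 0.107 to 0.282 in young DN. Both ratios overlapped between the groups. With all libraries 0 of the 15 B cell genes passed in edgeR, with 15 at an unadjusted p under 0.05. Without the same 2 libraries, 4 of the 15 passed as higher in aged DN, Cd79a and Ms4a1 not among them, and their part in the Blk and Ccr6 differences was not tested. Aged DN 5, the library with 2381 CPM of the 2 B cell markers, had 381 CPM of Blk and 189 CPM of Ccr6 but the lowest levels of Tcrg-C4, 5830411N06Rik and Sox13 (19.9 CPM) among all DN libraries.

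Genes of the interleukin-17 programme, listed apart from the 8, were described in the same comparison. With all libraries 1 of the 19 tested passed as higher in aged DN and none as lower, with a median log2 fold change of 2.34 against 0.02 over all genes tested. The gene that passed was Cxcr6, a chemokine receptor shared with NKT cells (log2 fold change 3.13, SE 0.52, adjusted p = 0.0492). Aged DN 1 had been set apart by the summed level of this same list. Leaving it out narrows the spread of the values tested, so the calls without it are descriptions. Without aged DN 1 and aged DN 5, 10 of the 19 were higher and 1 was lower, with a median log2 fold change of 0.78 against -0.01 over all genes tested. Il23r (log2 fold change 3.41, SE 0.27, adjusted p = 4.74e-05) and Il1r1 (2.45, SE 0.21, adjusted p = 7.83e-05) were among those higher, and Sox4, an HMG-box factor of early thymocytes, was the one lower (-0.35, SE 0.06, adjusted p = 0.0062). Of 5 receptor genes, Trdv4, a delta chain variable gene, passed as higher without those libraries (log2 fold change 3.41, SE 0.72, adjusted p = 0.0185). It had 1.75, 1.39 and 12.3 CPM in aged DN 2, 3 and 4, against 0.146 to 0.935 CPM in young DN, so aged DN 4, which also had the second highest Cd163l1, was the highest. Among 11 genes of interferon-gamma-producing gamma delta T cells, 5 passed as higher and none as lower without those libraries. In the same fit 6 of 11 genes of innate-like alpha beta T cells and 5 of 10 NK cell genes were higher and none lower. These lists share called genes, such as Il2rb and Tbx21 between the interferon-gamma and innate-like lists and Klrd1 between the interferon-gamma and NK lists, so the cell types cannot be told apart by them.

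In DP thymocytes, Blk passed the test of age. It had 12.5, 3.07, 2.80, 1.92 and 22.6 CPM in aged DP 1 to 5, against 0.340, 0, 0.0701, 0.929 and 0.672 CPM in young DP 1 to 5. Every aged DP library lay above every young DP library, and aged DP 1 and aged DP 5 were highest. The log2 fold change was 4.37 (SE 0.78, edgeR adjusted p = 0.0122). It was the only one of the 6 tested genes to pass, in a comparison where 0.942% of all 13059 genes were called, and Zbtb16 and Ccr6 did not pass the filter on low counts. Without aged DP 1 and aged DP 5, Blk was at a log2 fold change of 2.62 (SE 0.60) with an adjusted p of 0.0608, and 0 of 6 passed, where 0.692% of all genes were called. Both libraries were the highest for Blk itself, and aged DP 1 stood out by genes tested here, such as Cd163l1 (18.3 CPM). Leaving them out acts on the values tested, so the result without them is a description. Of the B cell list, 5 of 11 tested genes were higher in aged DP and none lower, and aged DP 5, with 117 CPM of Cd79a and Ms4a1, was the highest there as well. Without aged DP 1 and aged DP 5, 4 of 12 tested genes of that list were higher and none lower.

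In knockout DP thymocytes, 2 of 6 tested genes passed, both as higher, where 1.48% of all 13233 genes tested were called higher. Ccr6 had 6.50, 6.37, 1.73, 4.84 and 2.03 CPM in KO DP 1 to 5, against 0, 0.203, 0, 0.0760 and 0 CPM in WT DP 1 to 5. Blk had 10.1, 6.52, 4.67, 6.98 and 4.41 CPM in KO DP 1 to 5, against 1.15, 1.83, 1.02, 1.37 and 0.468 CPM in WT DP 1 to 5. For both genes every KO DP library lay above every WT DP library. The log2 fold change was 6.04 for Ccr6 (SE 0.84, edgeR adjusted p = 0.00237), which rests on 4 counts in all of WT DP, and 2.48 for Blk (SE 0.40, adjusted p = 0.00611). With all 35 libraries in the fit, Blk was at an adjusted p of 0.103.

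The other 4 tested genes did not pass. Tcrg-C4 had 4.31, 0.986, 1.09, 3.25 and 2.38 CPM in KO DP 1 to 5, against 1.07, 0.677, 1.09, 1.37 and 1.01 CPM in WT DP 1 to 5, and the groups overlapped (log2 fold change 1.20, SE 0.50, adjusted p = 0.301). Maf was at a log2 fold change of 1.22 (SE 0.41, adjusted p = 0.199), 5830411N06Rik at 1.07 (SE 0.47, adjusted p = 0.326) and Sox13 at 0.10 (SE 0.75, adjusted p = 0.967). Cd163l1 and Zbtb16 did not pass the filter on low counts, with 88 and 2 counts over KO DP and 27 and 0 counts over WT DP. Of 15 tested genes of the interleukin-17 programme, none passed as higher and 1 as lower, Il17re, an interleukin-17 receptor subunit (log2 fold change -0.93, SE 0.21, adjusted p = 0.0446). Without KO DP 2, 4 passed as higher and 2 as lower, where 3.94% of all 13550 genes tested were called. Of 8 tested genes of the interferon-gamma list 3 passed as higher and none as lower, among them Ccl5, a chemokine of cytotoxic lymphocytes (log2 fold change 3.67, SE 0.51, adjusted p = 0.00237), and Il2rb, a subunit of the interleukin-2 receptor (1.73, SE 0.29, adjusted p = 0.0078). Without KO DP 2, 4 of the 8 passed as higher and none as lower.

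Markers of other cell types rose in KO DP. Of the 15 B cell genes 12 were higher than in WT DP and none lower, including Cd79a (log2 fold change 3.76, SE 0.32, adjusted p = 8.94e-05), a signalling subunit of the B cell receptor. Of 7 tested dendritic cell genes 6 were higher and none lower, and of 7 tested macrophage genes 3 were higher and none lower. Of 6 tested NK cell genes 3 were higher and none lower, including Gzmb, a cytotoxic granule protease (log2 fold change 4.76, SE 0.54, adjusted p = 0.00052). Of 10 tested genes of innate-like alpha beta T cells 1 was higher and none lower. Of 9 tested DN-stage genes 3 were higher and none lower, including Lmo2, a regulator of early progenitors (log2 fold change 3.82, SE 0.55, adjusted p = 0.00299), and Dtx1, a Notch pathway gene (1.94, SE 0.29, adjusted p = 0.00422). Of 9 DP-stage genes none passed in edgeR, with 3 at an unadjusted p under 0.05. Without KO DP 2, 3.94% of all genes tested were called. In that fit 13 of 15 B cell, 6 of 8 dendritic cell, 5 of 7 macrophage and 5 of 7 NK cell genes were higher. For innate-like alpha beta T cells it was 3 of 10 and for the DN stage 4 of 10, with none lower in any of these lists. Cd79a and Ms4a1 summed to 17.6 to 60.7 CPM in KO DP, against 1.57 to 3.72 CPM in WT DP. Per CPM of those 2 markers, Blk stood at 0.105 to 0.371 in KO DP and 0.222 to 0.727 in WT DP, and Ccr6 at 0.0389 to 0.362 in KO DP and 0 to 0.0545 in WT DP. The part of these cell types in the Blk and Ccr6 differences was not tested.

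**Figure D5:**
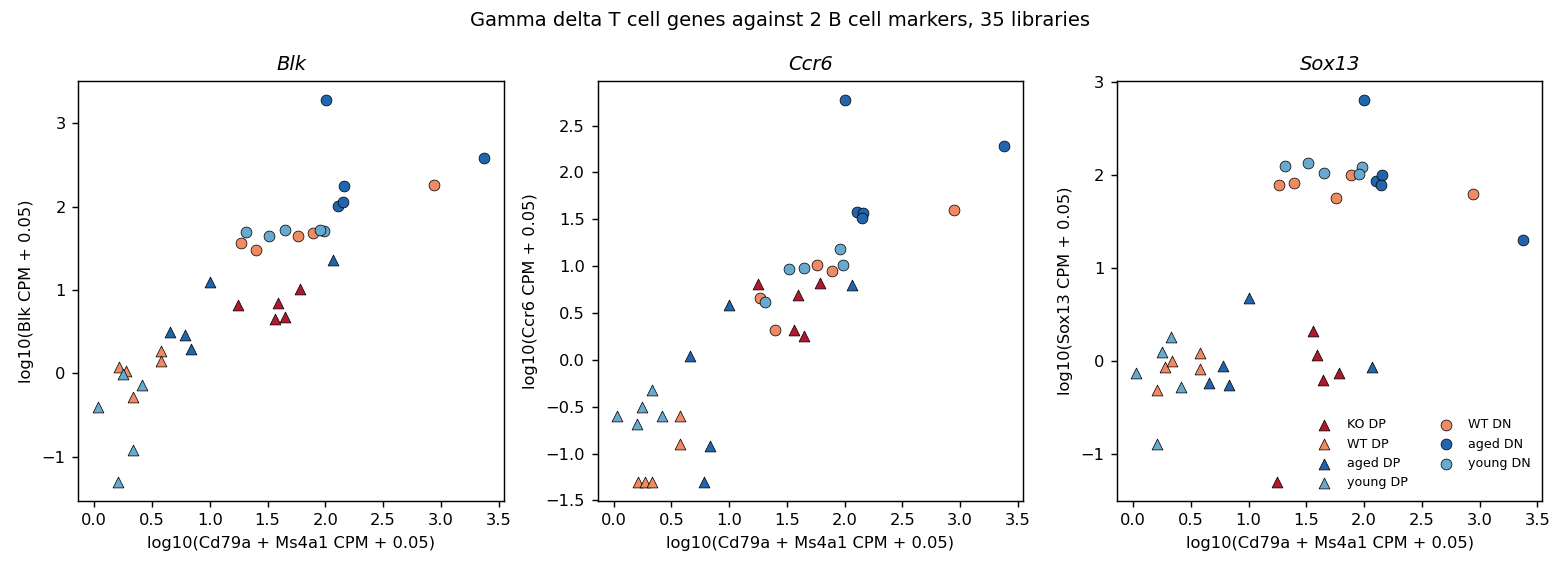
Blk, Ccr6 and Sox13 against the summed level of Cd79a and Ms4a1 in all 35 libraries, both as log10(CPM + 0.05); triangles are DP and circles DN libraries. KO DP libraries lie right of WT DP on the marker axis with higher Blk and Ccr6, while aged DN 1, at 100.4 CPM of the markers, has 1901 CPM of Blk.

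The mice that carried Cd4Cre differed from young wild type mice of the same age in 1 of the 8 genes in DN cells. Sox13 had 56.5, 61.9, 76.8, 98.2 and 80.3 CPM in WT DN 1 to 5, against 123, 134, 122, 102 and 103 CPM in young DN 1 to 5. The groups did not overlap, and the log2 fold change was -0.68 (SE 0.14, edgeR adjusted p = 0.00621). In this comparison 25.1% of all 13702 genes tested were called, and 10.9% were called lower. A count of 1 of 8 is below the 25.1% called in both directions together. Sox13 was called lower, and 1 of 8 is near the 10.9% called lower. With all 35 libraries in the fit, Sox13 was at an adjusted p of 0.481. Without WT DN 1, Cd163l1 passed as well (adjusted p = 0.0151).

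Blk and Ccr6 rested on WT DN 2 in that comparison. Blk had 44.5, 181, 36.3, 48.2 and 30.0 CPM in WT DN 1 to 5, against 44.7 to 53.0 CPM in young DN. WT DN 2, with 878 CPM of the 2 B cell markers, was the highest of the group for both Blk and Ccr6 (39.7 CPM) and the lowest for Zbtb16 (0.342 CPM against 2.04 to 5.46 CPM in the other WT DN libraries). Without it Blk passed as lower in WT DN (log2 fold change -0.35, SE 0.12, adjusted p = 0.0363), and Sox13 was at -0.61 (SE 0.13, adjusted p = 0.00259), where 31.5% of all genes were called. With all 10 libraries, 2 of the 19 tested genes of the interleukin-17 programme were higher and 5 lower in WT DN, where 14.2% of all genes were called higher and 10.9% lower, and Il1r1 was among those lower (log2 fold change -0.78, SE 0.21, adjusted p = 0.0218). Without WT DN 2 the counts were 3 higher and 5 lower. In the fit with all 10 libraries, 7 of 11 genes of the interferon-gamma list and 8 of 10 NK cell genes were higher and none lower. Without WT DN 2 those higher were 9 of 11 and 8 of 10, again with none lower. In DP cells, WT DP against young DP gave 0 of 5 tested genes (edgeR adjusted p from 0.25 to 0.978, 1 at an unadjusted p under 0.05), with 0.589% of all 13083 genes called, and DESeq2, which called 3.65% of all genes, gave 0 of 1.

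Across the 15 DN libraries, after each group's mean was subtracted from log2 CPM, the 8 genes fell into pairs of unequal likeness. Spearman's rho was 0.88 between Blk and Ccr6 and 0.85 between Sox13 and Maf. It was 0.00 between Sox13 and Blk and -0.47 between Tcrg-C4 and Ccr6, and 0.31 between the neighbours Cd163l1 and 5830411N06Rik. These points share libraries and depth, and aged DN 1 and aged DN 5 are at their ends, so the values are descriptions. Of 9452 other genes, the most alike were Gmip for Blk (0.98), Pltp for Ccr6 (0.96), Rgs1 for Cd163l1 (0.95), Fbxo28 for Zbtb16 (0.97), Col18a1 for Sox13 (0.93), Tagln2 for Maf (0.91), Arvcf for Tcrg-C4 (0.90) and Tuba8 for 5830411N06Rik (0.89). For Blk, Serpinb1a was next at 0.97, a gene of the interleukin-17 list that was also high in aged DN 1 (291 CPM), aged DN 5 (161 CPM) and WT DN 2 (104 CPM).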

How the data were processed

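Gene counts per library were used as deposited, without normalization by the authors, from 1 table of 41096 genes and 35 libraries that also gives gene lengths; columns were assigned by their names. Per the submitters' processing notes the tools were STAR 2.5.1, HTSeq 2.0.3, Subread, Trim Galore 0.4, bcl2fastq and DESeq2, with the builds mm10 and GRCm39 named; which build and which counter made the deposited counts is not given in the sources used here. Each comparison was fitted over its own 2 groups across all genes with edgeR 4.0.16 (quasi-likelihood test, TMM scaling, low-count filter at 10 per library and 15 in all, Benjamini-Hochberg adjustment, threshold 0.05; SE from the fold change and F) in R 4.3.3, and the interaction over 4 groups. The fit was checked on simulated counts. CPM are counts scaled to library size after TMM over all 35 libraries, and the bound for a group at 0 uses a floor of 3 counts over the group, which covers counting error only. No 2 libraries were identical. Same-numbered libraries were taken to pair where all 5 correlations of their deviations were above 0.1. This held in aged DP against aged DN, where they lay between 0.168 and 0.348, and in no other comparison. In young DP against young DN they ran from 0.0302 to 0.187, and in WT DP against WT DN from -0.157 to 0.267. In each of these, 3 of 5 libraries correlated best with their own number, so partial pairing there is not settled. Alternatives were DESeq2 1.42.0, other scalings, no filter, 1 fit over all libraries, a replicate block, leaving out libraries in turn, and leaving out those that stand apart. The libraries that stand apart were picked by their values in these data.

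All 8 genes are named. Other lists were the interleukin-17 programme, receptor genes, the interferon-gamma programme and innate-like alpha beta T cell, NK cell and B cell genes. The rest were dendritic cell, macrophage, DN-stage and DP-stage genes. From these lists, genes are named from the 2 with the smallest adjusted p in each direction. Il23r, Il1r1, Il17a, Sox4, Ccr2, Trdc, Tcrg-V4, Tcrg-V5, Tcrg-V6, Trdv4, Serpinb1a, Tbx21 and Klrd1 were singled out after their values were seen. Listed genes with no row of that name, such as Tcrg-C1, were not analysed here. The 8 genes and the lists were chosen with earlier results of these data known. Genes most alike are those with the highest Spearman correlation among genes that averaged 5 CPM or more in DN.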

Additional observations from a re-analysis of the deposited data

Results flagged for a closer look

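Single libraries were compared with the others of their group by Dixon's test for 5 values. In 16 of the 56 gene and group combinations a library lay far from the rest, each time as the highest. The rate of about 1 in 20 groups flagged by chance holds for independent, normally distributed values. Here many flags share a library and some rest on few counts, and the share of all genes flagged was not counted. The flags are therefore descriptions, and an excess over chance was not tested. 7 of the 16 were aged DN 1, at 2919 CPM of Cd163l1, 1743 CPM of 5830411N06Rik, 632 CPM of Sox13, 1901 CPM of Blk, 1026 CPM of Maf, 134 CPM of Zbtb16 and 590 CPM of Ccr6. 4 were aged DP 1, at 2.09 CPM of Tcrg-C4, 18.3 CPM of Cd163l1, 11.9 CPM of 5830411N06Rik and 4.70 CPM of Sox13. These 2 libraries carry the same number, and the aged DP and aged DN libraries of one number deviated together across genes.

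WT DN 2 stood far above its group for Blk (181 CPM) and Ccr6 (39.7 CPM), in the library with the highest B cell markers of its group. WT DN 1 was high for Cd163l1 (134 CPM). At low levels, young DP 2 was high for 5830411N06Rik (1.87 CPM, 24 counts) and KO DP 5 was the only KO DP library with Zbtb16 (0.140 CPM, 2 counts). None of the 8 genes passed the interaction test of age and stage. With SEs of up to 1.80 there, this does not show that the age effects in DP and DN are alike.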

How the results depend on the processing

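The count of the 8 genes called was unchanged, or within 1.5 times, under every alternative for DP against DN in young and in WT mice, WT DP against young DP and the interaction of age and stage. In KO DP against WT DP it was 2, and 1 with all 35 libraries in the fit. In aged DP against young DP it was 1, 3 with no filter on low counts, and 0 without aged DP 1 and aged DP 5. In aged DN against young DN it was 0, 2 with DESeq2, 5 with all 35 libraries in the fit, 5 without aged DN 1 and aged DN 5, and 0 to 1 when libraries were left out in turn, with Blk called without aged DN 1 (adjusted p = 0.0342). In aged DP against aged DN it was 8, and 5 with DESeq2, which gave an adjusted p to 5 of the genes only. In WT DN against young DN it was 1, 0 with all 35 libraries, 2 without WT DN 2, and 1 to 2 when libraries were left out in turn, with Cd163l1 called without WT DN 1 (adjusted p = 0.0151). Except where stated, the cause was not tested. The log2 fold change of Sox13 was -0.21 in KO DP against WT DP with the replicate block, -0.28 in aged DN against young DN with that block and -0.40 without aged DN 1 and aged DN 5. Ccr6 in WT DN against young DN was -0.18 with the block and -0.62 without WT DN 2, and Blk was -0.35 without it. Without aged DP 1 and aged DP 5, Sox13 was -0.45 and Maf -0.39 in aged DP against young DP. Tcrg-C4 in aged DN against young DN was 0.029 without aged DN 1 and aged DN 5. With libraries left out in turn, Sox13 ran from -0.45 to 0.41 in KO DP, from -0.33 to 1.24 in aged DP and from -0.71 to 0.99 in aged DN, 5830411N06Rik from -0.11 to 1.86 in aged DP and from -0.037 to 0.067 in WT DN, Tcrg-C4 from -0.32 to 0.026 in aged DN, and Blk from -0.35 to 0.63 and Ccr6 from -0.62 to 0.70 in WT DN. Cd163l1 in aged DN was 0.70 without aged DN 1, against 2.90.

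The replicate block, which fits the pairs in aged DP against aged DN, left 8 of 8 called there and changed no call among the 8 genes elsewhere; where the numbers do not pair, over all genes it called 61 in KO DP, against 211 without it, 1 in aged DN, against 37, and 8 in WT DP against young DP, against 77. In WT and young mice 3 of 5 libraries correlated best with their own number. Over all genes, the number called moved by more than 1.5 times as follows. In KO DP it was 211, with 606 by DESeq2, 534 without KO DP 2, and 101 to 534 with libraries left out in turn. In aged DP it was 123, with 329 by DESeq2, 353 with no filter, 30 with all 35 libraries and 58 to 136 left out in turn. In aged DN it was 37, with 924 by DESeq2, 2160 with all 35 libraries, 738 without aged DN 1 and aged DN 5, and 10 to 185 left out in turn. In WT DP against young DP it was 77, with 409 by DESeq2, 149 with no filter, 4 with all 35 libraries and 23 to 98 left out in turn. In WT DN it was 3439, with 1752 with all 35 libraries and 2102 to 4392 left out in turn. For the interaction it was 1, with 82 by DESeq2, 21 with all 35 libraries, 72 without the 4 aged libraries that stand apart, 4 without aged DN 1 and aged DP 1 (chosen after the data were seen), and 1 to 7 left out in turn. In DP libraries most counts of these genes were below 100, which limits what could be detected there.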

Other observations

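Trdc, the constant region of the delta chain, was detected in DP thymocytes at levels far nearer to those in DN than the 8 genes were. It had 96.9, 88.7, 56.4, 86.8 and 72.5 CPM in young DP 1 to 5, against 181, 190, 174, 170 and 173 CPM in young DN 1 to 5. The groups did not overlap, and Trdc was lower in young DP by edgeR's quasi-likelihood test (log2 fold change -1.13, SE 0.11, adjusted p = 3.2e-07). In WT mice the means were 87.8 ± 11.1 CPM in WT DP and 199 ± 13.2 CPM in WT DN (SD, n = 5 each; log2 fold change -1.16, SE 0.09, adjusted p = 1.91e-07). Tcrg-C4, the gamma chain constant region among the 8, was 120-fold lower in young DP than in young DN. Trdc was picked from the list of receptor genes after its values were seen, and the difference between Trdc and Tcrg-C4 was not tested. The Trdc gene lies within the T cell receptor alpha locus, and how reads there were counted by strand is not given in the sources used here.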
